A study of Homo sapiens with 16 samples.

Results

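Collagen and laminin genes were taken as every gene of the deposited count table whose symbol has the form of a collagen chain (COL, a type number, A and a chain number) or of a laminin chain (LAMA, LAMB or LAMC and a number). This gave 56 of 25369 genes, 44 for collagens and 12 for laminins. Of these, 37 genes, 26 collagens and 11 laminins, had a mean of at least 1 CPM (counts of a gene per 1e+06 counts of its library) in some group. The lowest of them were *COL11A2*, *COL14A1*, *COL9A2* and *COL25A1*, with highest group means of 2.28, 2.21, 1.51 and 1.23 CPM. Just outside stood *COL6A5*, *COL1A2*, *COL4A3* and *COL8A2* at 0.806, 0.510, 0.401 and 0.327 CPM. The 19 genes left out had highest group means of 0.0152 to 0.806 CPM, and 5 of them had no count in any TPC1 library, while each had a count in some K1 library. Group means of at least 1 CPM were reached by 31 of the 37 genes in TPC1, 33 in K1 and 27 in both.

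RNA-seq of polyadenylated RNA was measured in the human papillary thyroid carcinoma lines TPC1, grown in RPMI, and K1, grown in DMEM. Each line was treated for 24 h with 0.2% DMSO as vehicle, 10 µM nutlin, an antagonist of MDM2 that stabilises p53, 25 µM GSK2830371, an inhibitor of the phosphatase PPM1D, or both drugs together (the combination). With 2 libraries in each of the 8 groups, all 16 libraries were used. The study describes its experiments in general as independently repeated biological replicates, without naming the cultures behind these libraries, so p-values measure the spread between these libraries, part of which may be technical. The TPC1 libraries numbered 1 held 30789887 to 36896529 counts, those numbered 3 held 62853375 to 76648552, and the K1 libraries, numbered 1 and 2, held 28888686 to 37161241. Paired values below are in that order of library number, which is that of the count table's columns. The sample labels number the TPC1 libraries 1 and 2, so a column numbered 3 was matched to its treatment group only. A line is 1 cell population with its own medium, and the libraries of the lines may have been made and sequenced apart, so line, medium and library run cannot be told apart. These are bulk measurements, in which fewer cells and less RNA per cell cannot be told apart.

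Collagens are triple helices of alpha chains that are hydroxylated, folded and secreted, then trimmed outside the cell and cross-linked into fibrils, networks or beaded filaments. Laminins are cross-shaped trimers of an alpha, a beta and a gamma chain. With type IV collagen, nidogens and perlecan they form the basement membrane, the sheet on which thyroid follicular cells and other epithelia rest and which carcinoma cells cross when they invade.

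The labelled cell type was checked with 12 thyrocyte markers. Their summed level was 310.1 to 484 CPM in the TPC1 libraries and 785 to 883 CPM in the K1 libraries, and *PAX8* was the most abundant of them in every library. The thyrotropin receptor gene *TSHR* had no count in any library and *NKX2-1* none in TPC1. The 10 epithelial markers summed to 759 to 1166 CPM and 1126 to 1422 CPM, with *KRT8* the most abundant in all but the TPC1 combination libraries, where it was *CLDN1*, whereas *CDH1* stood at 0 to 0.0307 and 0 to 0.0692 CPM. The 14 fibroblast and mesenchymal markers summed to 2041 to 3813 CPM and 5679 to 7424 CPM, with *VIM* the most abundant, and *DCN* and *POSTN* had no count in TPC1. In TPC1 this sum was 3333 and 3813 CPM under DMSO, 2463 and 2705 under nutlin, 3358 and 3680 under GSK2830371, and 2041 and 2278 under the combination. The K1 libraries held 7136 and 7424 CPM under DMSO, and 5906 and 5679 under the combination. The 6 endothelial markers summed to 0.412 to 1.64 CPM and 3.73 to 8.56 CPM, with *TEK* highest in TPC1 and *KDR* in K1. The 6 leukocyte markers summed to 34.6 to 71.8 CPM and 58.5 to 79.5 CPM, with *CD68* the most abundant, and *CD3E* and *MS4A1* had no count in any library.

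Some of the markers were called under the drugs as well. Counts are out of all listed markers, of which those without counts, such as *TSHR*, were not tested. In TPC1, edgeR's test called raised or lowered under nutlin 4 of 12 thyrocyte markers, 2 of 10 epithelial markers, 4 of 14 fibroblast and mesenchymal markers, 0 of 6 endothelial markers (1 at an unadjusted p under 0.05, 0 in DESeq2) and 2 of 6 leukocyte markers. Under the combination it called 3 of 12 thyrocyte markers, 2 of 10 epithelial markers, 7 of 14 fibroblast and mesenchymal markers, 1 of 6 endothelial markers and 1 of 6 leukocyte markers. Of all genes tested in TPC1, nutlin raised 17.5% and lowered 18%, and the combination raised 22.5% and lowered 21.7%. *ACTA2* (log2 fold change 3.84 ± 0.11 SE), *CD68* (1.00 ± 0.12), *HHEX* (-1.94 ± 0.17), *KRT18* (-1.13 ± 0.12), *PDGFRB* (-1.40 ± 0.13) and *CDH2* (-1.28 ± 0.10) were among those called under nutlin. Unlike *HHEX*, the thyrocyte markers in sum were higher under nutlin in TPC1, at 483.7 and 479.8 CPM against 359.9 and 360.4 under DMSO. Under the combination that sum was 359.6 and 310.1 CPM. In K1 the counts under nutlin were 2 of 12 thyrocyte markers, 1 of 10 epithelial markers, 1 of 14 fibroblast and mesenchymal markers, 1 of 6 endothelial markers and 0 of 6 leukocyte markers (1 at an unadjusted p under 0.05, 0 in DESeq2). Under the combination they were 4 of 12 thyrocyte markers, 2 of 10 epithelial markers, 4 of 14 fibroblast and mesenchymal markers, 1 of 6 endothelial markers and 1 of 6 leukocyte markers. Among all genes tested in K1 nutlin raised 3.84% and lowered 5.43%, and the combination raised 7.62% and lowered 8.09%. There *TG* (1.01 ± 0.13), *CLDN1* (0.69 ± 0.11) and *ACTA2* (0.61 ± 0.07) rose and *KDR* (-0.73 ± 0.16) fell under nutlin. The K1 call of *CLDN1* was lost with leaving out DMSO library 1 (log2 0.58) and leaving out nutlin library 1 (log2 0.52). That of *ACTA2* was lost with leaving out DMSO library 2 (log2 0.57). The part of these markers in the results for collagens and laminins was not tested.

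The drugs acted on the p53 response in both lines. *CDKN1A*, a cell cycle inhibitor that p53 induces, measured 128 and 149.8 CPM under DMSO, 6569 and 6689 under nutlin, 167 and 183 under GSK2830371, and 11142 and 12704 under the combination in TPC1. Its K1 levels were 110.2 and 118 CPM under DMSO, 978 and 1046 under nutlin, 229 and 227 under GSK2830371, and 1549 and 1611 under the combination. Both nutlin and combination libraries lay above both DMSO libraries in each line, with log2 fold changes of 5.61 ± 0.14 (edgeR adjusted p = 7.48e-09) and 6.47 ± 0.15 (edgeR adjusted p = 3.2e-09) in TPC1. *MDM2*, the ligase that nutlin binds, measured 142 and 123 CPM under DMSO, 4057 and 4018 under nutlin, 155 and 156 under GSK2830371, and 4753 and 4699 under the combination in TPC1, and 155 and 156, 1261 and 1288, 189 and 208, and 1914 and 2158 CPM in K1. Its log2 fold changes under nutlin and the combination were 4.96 ± 0.11 and 5.21 ± 0.11 in TPC1 and 3.05 ± 0.07 and 3.68 ± 0.07 in K1. All 10 of the p53 targets taken as a treatment check rose under nutlin and under the combination in each line. Throughout, edgeR adjusted p stands for the quasi-likelihood test of edgeR, adjusted by Benjamini-Hochberg over all genes tested, ± is the SE of a log2 fold change or, where larger, its counting error (few counts in a group), and a gene is called raised or lowered at an adjusted p under 0.05 and a fold change above 1.5.

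Collagen and laminin genes together took 0.501% to 0.702% of the counts in the TPC1 libraries and 0.742% to 0.876% in those of K1. The collagens summed to 2295 to 3429 CPM in TPC1 and 5049 to 6072 CPM in K1, and the laminins to 2608 to 3587 and 2376 to 2710.0 CPM. The plot of levels in each library shows the spread over these genes.

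**Figure D1:**
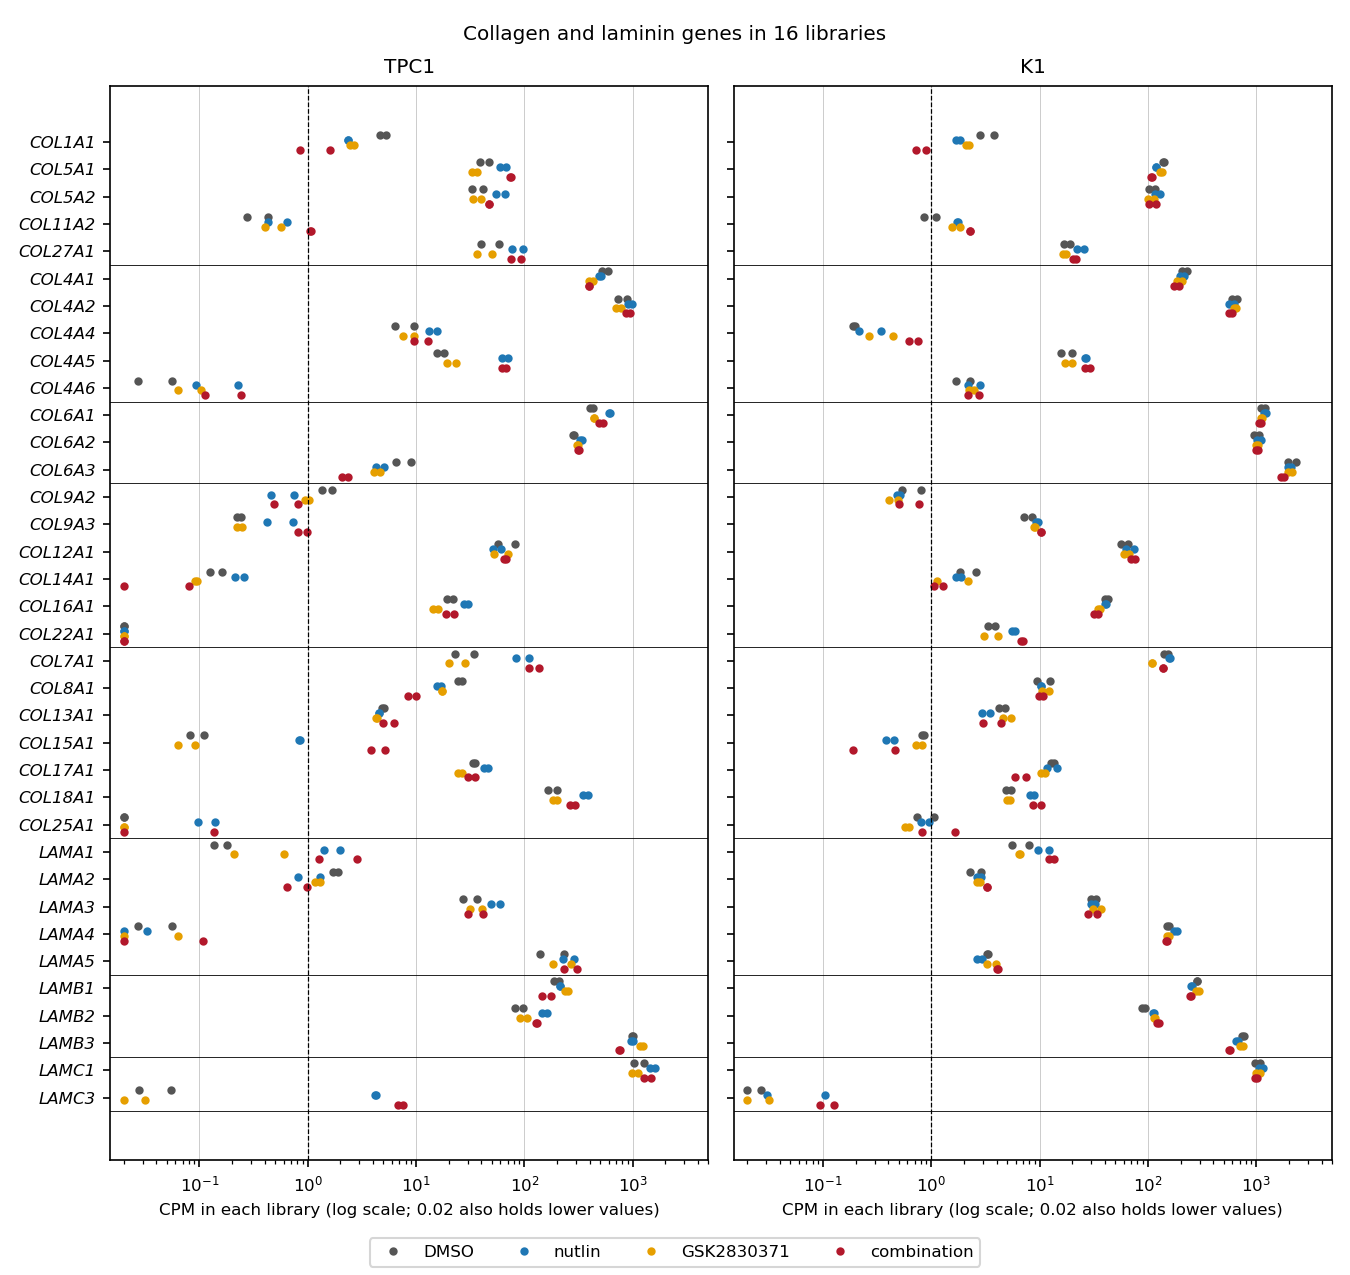
CPM of genes with a group mean of at least 1 CPM in each of the 16 libraries, on a log axis, with TPC1 left and K1 right and points coloured by treatment. Horizontal lines part the classes from fibrillar collagens at the top to laminin gamma chains at the bottom, the dashed line marks 1 CPM, the leftmost points also stand for lower values, and *COL6A3* and *LAMA4* stand far to the left in TPC1 (2.06 to 8.92 CPM and 0 to 0.108 CPM) and far to the right in K1 (1707 to 2328 CPM and 146 to 187 CPM).

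In TPC1, 40 of the 56 genes passed the filter on low counts and were tested. Nutlin raised 16 of these 40, beside 17.5% of all genes tested (2671 of 15273), and lowered 4, beside 18%. The median log2 fold change of the tested genes was 0.57, against -0.00185 over all genes tested. GSK2830371 alone raised 0 of them in edgeR's test, with 3 raised at an unadjusted p under 0.05 and 0 in DESeq2, and lowered 2, beside 0.72% and 0.681% of all genes tested. The median was -0.20, or -0.23 with genes of an all-0 group set at their bound, against -0.00625 over all genes. The combination raised 11 against DMSO and lowered 6, beside 22.5% and 21.7%, with a median of 0.33 (0.30 at the bounds) against 0.00352. Against nutlin alone it raised 3 and lowered 4, beside 6.46% and 5.66%. These comparisons share libraries, those against DMSO the same DMSO libraries. Among the genes raised, *COL2A1*, *COL15A1*, *LAMC3* and, under nutlin, *COL25A1* would not have passed the filter without the nutlin and combination libraries. Their calls therefore do not stand apart from the rise that admitted them. With DMSO library 1 left out, nutlin lowered 2. The count lowered by GSK2830371 was 0 with a fit of the compared groups only and with DMSO library 1 or any nutlin or GSK2830371 library left out, 1 with scaling by library size only and with DMSO library 3 left out, and 4 with a correction for GC content and length together with the library number as a block. With either nutlin library left out, the combination raised 1 and lowered 2 against nutlin.

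In K1, 45 of the 56 genes were tested. Nutlin raised 4 and lowered 1, beside 3.84% and 5.43% of all genes tested, and the median log2 fold change was 0.07 against -0.00166 over all genes. GSK2830371 raised 1 (*COL11A2*) and lowered 1 (*COL1A1*), beside 0.736% and 1.49%, with a median of -0.01 against 0.0178. The combination raised 6 and lowered 4 against DMSO, beside 7.62% and 8.09%, with a median of -0.03 against 0.0116. Against nutlin alone the combination raised 0 in edgeR's test, with 4 at an unadjusted p under 0.05 and 0 in DESeq2, and lowered 2, beside 1.16% and 1.52%. Nutlin raised 2 with DMSO library 2 left out, and lowered 2 with no filter on low counts, with crossed library numbers as a block, with a fit of the compared groups only and with either combination library left out. The gene raised by GSK2830371 was not called with a correction for GC content and length, without or with the block, with a fit of the compared groups only and with DMSO library 2 or GSK2830371 library 1 left out. Against nutlin the combination lowered 1 with either nutlin library or combination library 1 left out. Called in the same direction in both lines were *COL18A1* and *LAMA1*, raised, and *COL1A1*, lowered, under nutlin. Under the combination these were *COL11A2*, *COL18A1*, *COL4A5* and *LAMA1*, raised, and *COL1A1*, lowered.

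**Figure D2:**
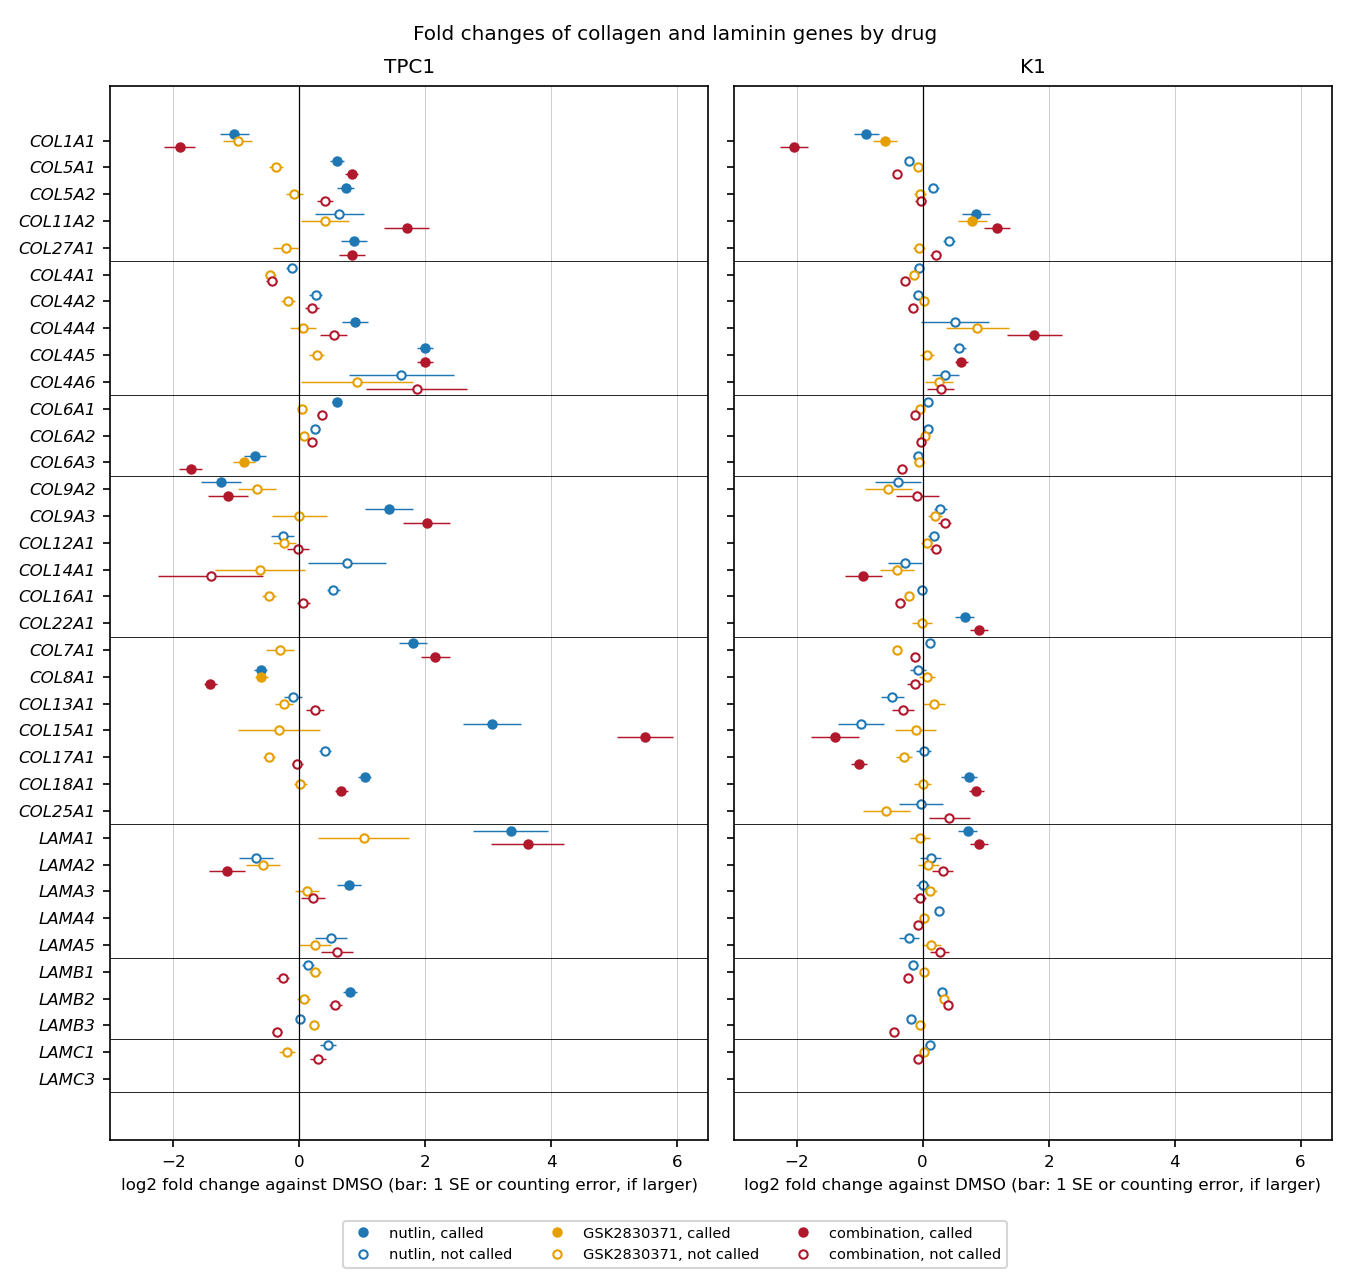
Log2 fold changes against DMSO of the same genes in TPC1 (left) and K1 (right), with bars of 1 SE or, where larger, the counting error, filled points for genes called raised or lowered and open points for the rest. Values for which a compared group holds at most 3 counts in every library are left out, such as those of *LAMC3*, and in TPC1 the points spread to both sides more widely than in K1.

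The lines differed in these genes before any drug. Under DMSO, 20 of the 48 genes that were tested were higher in K1, beside 25% of all genes tested, and 10 were lower, beside 21.2%, with a median log2 difference (K1 minus TPC1) of 0.51 against 0.02 over all genes. The effect of nutlin differed between lines for 11 genes, beside 19.2%, and that of the combination for 13, beside 25.7%. These tests used all 16 libraries in a single fit, over 48 of the 56 genes.

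Among the 11 fibrillar collagens, the chains of banded fibrils, 5 reached 1 CPM. *COL1A1*, the main chain of type I collagen, was low in these cells and fell with the drugs in both lines. It measured 5.23 and 4.64 CPM under DMSO, 2.34 and 2.37 under nutlin, 2.44 and 2.69 under GSK2830371, and 0.841 and 1.59 under the combination in TPC1. In K1 its levels were 3.78 and 2.80 CPM under DMSO, 1.83 and 1.68 under nutlin, 2.11 and 2.22 under GSK2830371, and 0.722 and 0.900 under the combination. In each line every drug-treated library lay below both DMSO libraries, and the combination libraries lay below those of nutlin alone. The gene is given by library as a choice made after its values were seen. The log2 fold change was -1.03 ± 0.23 (edgeR adjusted p = 0.00443) under nutlin and -1.90 ± 0.25 (edgeR adjusted p = 0.00012) under the combination in TPC1, and -0.89 ± 0.20 (edgeR adjusted p = 0.00333) and -2.04 ± 0.22 (edgeR adjusted p = 6.43e-06) in K1. GSK2830371 alone gave -0.98 ± 0.23 (edgeR adjusted p = 0.0537) in TPC1, which is not a call, and -0.59 ± 0.19 (edgeR adjusted p = 0.0417) in K1. The combination was also lower than nutlin alone, with -0.87 ± 0.26 (edgeR adjusted p = 0.0367) in TPC1 and -1.15 ± 0.26 (edgeR adjusted p = 0.0104) in K1. The TPC1 call against nutlin was lost with a correction for GC content and length, a fit of the compared groups only and leaving out nutlin libraries 1 or 3, GSK2830371 libraries 1 or 3 or combination library 1, with log2 values of -0.89 to -0.53 and adjusted p of 0.0517 to 0.149, against 0.00237 to 0.149 over all 17 alternatives. In K1 that call was lost with leaving out nutlin libraries 1 or 2 or combination library 1, with log2 values of -1.20 to -1.02 and adjusted p of 0.0596 to 0.0888, against 0.000628 to 0.0888 over all 17 alternatives. The K1 call under GSK2830371 was lost with DESeq2, a fit of the compared groups only and leaving out DMSO library 1, nutlin libraries 1 or 2, GSK2830371 libraries 1 or 2 or combination libraries 1 or 2, with log2 values of -0.62 to -0.36 and adjusted p of 0.0525 to 0.337, against 0.0136 to 0.337 over all 18 alternatives.

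Type V collagen, which sets the diameter of type I fibrils, rose with nutlin in TPC1. Its chain *COL5A1* lay at 47.4 and 39.1 CPM under DMSO, 68.2 and 60.1 under nutlin, with 75.2 and 72.9 under the combination. The partner chain *COL5A2* lay at 41.3 and 32.9, 66.0 and 54.7 and 47.5 and 47.3 CPM, and *COL27A1*, a fibrillar collagen of developing cartilage, at 57.8 and 40.1, 97.8 and 77.5 and 93.9 and 75.2 CPM. For all 3 genes both nutlin libraries and both combination libraries lay above both DMSO libraries. *COL5A1* rose by log2 0.60 ± 0.11 (edgeR adjusted p = 0.00128) under nutlin and 0.83 ± 0.11 (edgeR adjusted p = 0.000134) under the combination. *COL27A1* rose by 0.88 ± 0.21 (edgeR adjusted p = 0.00558) and 0.84 ± 0.21 (edgeR adjusted p = 0.0057). *COL5A2* rose by 0.74 ± 0.13 (edgeR adjusted p = 0.00123) under nutlin, and its value under the combination, 0.41 ± 0.13, was below the fold threshold. In K1, where *COL5A1* ran from 106 to 141 CPM, the combination libraries were the lowest, at a log2 fold change of -0.41 ± 0.05 (edgeR adjusted p = 2.1e-05) that is under the fold threshold. The K1 values of *COL5A2* (99.3 to 129.9 CPM) and *COL27A1* (16.5 to 25.5 CPM) gave no call. The TPC1 call of *COL5A1* under nutlin was lost with scaling by library size only, a correction for GC content and length and leaving out DMSO library 3 or nutlin library 1, with log2 values of 0.37 to 0.57.

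*COL11A2*, a minor fibrillar chain of cartilage, was near the reporting limit, at 0.276 to 1.08 CPM in TPC1 and 0.861 to 2.29 CPM in K1. In TPC1 the nutlin libraries overlapped those of DMSO and the combination libraries lay above both. In K1 each drug-treated group lay above DMSO and the combination was highest. The combination raised it by log2 1.71 ± 0.35 (edgeR adjusted p = 0.00219) in TPC1 and 1.18 ± 0.21 (edgeR adjusted p = 0.000445) in K1. It was also called in K1 under nutlin (0.84 ± 0.22, edgeR adjusted p = 0.0104) and GSK2830371 (0.79 ± 0.22, edgeR adjusted p = 0.0239), and in TPC1 for the combination against nutlin (1.07 ± 0.34, edgeR adjusted p = 0.0462). The K1 call under nutlin was lost with DESeq2 and leaving out DMSO library 2 or nutlin library 2, with log2 values of 0.67 to 0.85 and adjusted p of 0.0514 to 0.0996, against 0.00426 to 0.0996 over all 18 alternatives. That under GSK2830371 was lost with a correction for GC content and length, a fit of the compared groups only and leaving out DMSO library 2 or GSK2830371 library 1, with log2 values of 0.62 to 0.79 and adjusted p of 0.053 to 0.176, against 0.0115 to 0.176 over the 17 alternatives with an adjusted p, which DESeq2 did not give. The TPC1 call against nutlin was lost with scaling by library size only, DESeq2, a fit of the compared groups only and leaving out nutlin libraries 1 or 3, GSK2830371 libraries 1 or 3 or combination libraries 1 or 3, with log2 values of 0.74 to 1.33 and adjusted p of 0.0503 to 0.312, against 0.00489 to 0.312 over all 17 alternatives. *COL2A1*, which stayed under 1 CPM, had no count in the TPC1 DMSO libraries and 12 under nutlin, at least 2.28-fold higher against a floor of 3 counts per library, and 21 under the combination, at least 3.84-fold. Such floors and counting intervals cover counting error only.

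The network collagens of basement membranes are the 6 type IV chains, whose genes lie in head-to-head pairs. *COL4A1* and *COL4A2*, the chains of the common network, start 126 bases apart on chromosome 13 and are read in opposite directions. The bases between them that lie outside annotated exons are printed here because both genes start from this stretch, and *COL4A5*, whose gene lies head to head with *COL4A6* on chromosome X, is shown by the 250 bases before its start because it had the smallest adjusted p among the type IV chains under nutlin in TPC1. The promoter windows are those of RefSeq on GRCh38.p14, placed on GRCh37 by exact match. The first is chr13:110959505-110959604, plus strand, 100 bases with 78.0% G and C, of which the 26 bases nearest *COL4A2* are left out as exon. The second is chrX:107682818-107683067, plus strand, upstream of the gene, with 51.2% G and C. Capitals mark CCAAT and GGGCGG on either strand.
COL4A1 to COL4A2: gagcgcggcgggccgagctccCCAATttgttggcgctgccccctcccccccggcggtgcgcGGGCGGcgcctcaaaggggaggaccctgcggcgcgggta
COL4A5: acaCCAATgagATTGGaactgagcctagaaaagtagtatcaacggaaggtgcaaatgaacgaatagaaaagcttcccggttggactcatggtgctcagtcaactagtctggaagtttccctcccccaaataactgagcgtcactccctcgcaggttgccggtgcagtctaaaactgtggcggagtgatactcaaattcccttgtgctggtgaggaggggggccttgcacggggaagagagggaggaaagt
The first region holds CCAAT and GGGCGG 1 time each on the plus strand, and the second holds CCAAT 1 time on each strand.

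*COL4A1* measured 586 and 516 CPM under DMSO, 504 and 487 under nutlin, 432 and 398 under GSK2830371, and 391 and 394 under the combination in TPC1 and 228 and 208 CPM under DMSO in K1. *COL4A2* measured 884 and 734 CPM under DMSO, 987 and 912 under nutlin, 785 and 697 under GSK2830371, and 937 and 864 under the combination in TPC1 and 664 and 598 CPM under DMSO in K1. Neither was called under any drug in either line, although the combination gave *COL4A1* a log2 fold change of -0.44 ± 0.08 (edgeR adjusted p = 0.00154) in TPC1, under the fold threshold, and *COL4A2* 0.21 ± 0.11 (edgeR adjusted p = 0.117). Under DMSO the log2 difference of K1 from TPC1 was -1.34 ± 0.08 (edgeR adjusted p = 3.38e-10) for *COL4A1*, lower in K1, and -0.36 ± 0.09 (edgeR adjusted p = 0.00229) for *COL4A2*, under the fold threshold. Scaled by transcript length, *COL4A2* made up 58.1% to 67.0% of the type IV chains in the TPC1 libraries and 71.4% to 75.3% in those of K1, and *COL4A1* 27.6% to 40.3% and 22.4% to 25.0%.

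Among the other type IV chains *COL4A5* rose most in TPC1. This chain of the kidney and other specialised basement membranes measured 18.3 and 15.6 CPM under DMSO, 69.9 and 61.7 under nutlin, 23.3 and 19.3 under GSK2830371, and 68.0 and 62.0 under the combination in TPC1. The K1 libraries gave 19.96 and 15.7 CPM under DMSO, 26.0 and 26.8 under nutlin, 17.3 and 19.8 under GSK2830371, and 26.3 and 29.3 under the combination. Nutlin and combination libraries lay above those of DMSO in both lines, far more so in TPC1. Nutlin raised it by log2 1.997 ± 0.12 (edgeR adjusted p = 1.2e-06) and the combination by 1.998 ± 0.12 (edgeR adjusted p = 8.05e-07) in TPC1. In K1 the value was 0.58 ± 0.11 (edgeR adjusted p = 0.000913) under nutlin, short of the fold threshold, and 0.61 ± 0.11 (edgeR adjusted p = 0.000345) under the combination, a call. The nutlin effect differed between lines by -1.45 ± 0.17 (edgeR adjusted p = 5.41e-06) and the combination effect by -1.42 ± 0.16 (edgeR adjusted p = 4.49e-06). The K1 call was lost with leaving out DMSO library 2 (log2 0.45) and leaving out combination library 2 (log2 0.54). Its neighbour *COL4A6* lay at 0.0271 to 0.244 CPM in TPC1 and 1.70 to 2.83 CPM in K1, higher in K1 under DMSO by log2 5.34 (edgeR adjusted p = 2.33e-08), a ratio of 43.2 (95% counting interval 18.1 to 135), with no call under any drug.

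*COL4A4*, which with *COL4A3* and *COL4A5* forms the network of the kidney filter, was far lower in K1 than in TPC1. In TPC1 it measured 9.57 and 6.43 CPM under DMSO, 15.6 and 13.02 under nutlin, 9.63 and 7.59 under GSK2830371, and 12.8 and 9.56 under the combination. The K1 libraries held 0.199 and 0.188 CPM under DMSO, 0.346 and 0.213 under nutlin, 0.441 and 0.265 under GSK2830371, and 0.753 and 0.620 under the combination. Every TPC1 library lay above every K1 library, and the difference under DMSO was log2 -5.33 ± 0.39 (edgeR adjusted p = 2.51e-10). Nutlin raised it in TPC1 (0.89 ± 0.21, edgeR adjusted p = 0.00574), with both nutlin libraries above both of DMSO, and the combination raised it in K1 (1.77 ± 0.44, edgeR adjusted p = 0.00435) from 7 counts in each DMSO library. *COL4A3*, under 1 CPM, had 42 counts in the TPC1 DMSO libraries and 0 in those of K1, at least 4.63-fold lower in K1.

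Type VI collagen builds beaded filaments from the chains of *COL6A1*, *COL6A2* and a long partner chain, most often that of *COL6A3*. In K1 all 3 genes were high, and in TPC1 the long chain was low. *COL6A3* measured 2328 and 1982 CPM under DMSO, 1945 and 2114 under nutlin, 1973 and 2157 under GSK2830371, and 1707 and 1816 under the combination in K1. In TPC1 it measured 8.92 and 6.54 CPM under DMSO, 5.00 and 4.25 under nutlin, 4.66 and 4.07 under GSK2830371, and 2.06 and 2.37 under the combination. The lines were separated without overlap, by log2 8.14 ± 0.15 (edgeR adjusted p = 3.56e-16) under DMSO. Within TPC1 each drug-treated group lay below DMSO and the combination lowest. It fell there with each, at log2 fold changes of -0.71 ± 0.18 (edgeR adjusted p = 0.00769) under nutlin, -0.87 ± 0.18 (edgeR adjusted p = 0.0357) under GSK2830371 and -1.72 ± 0.19 (edgeR adjusted p = 3.77e-05) under the combination. The combination was also lower than nutlin alone (-1.02 ± 0.19, edgeR adjusted p = 0.00532). In K1 the combination gave -0.32 ± 0.08 (edgeR adjusted p = 0.00372), under the fold threshold, and the combination effect differed between lines by 1.35 ± 0.19 (edgeR adjusted p = 3.2e-05). The nutlin call in TPC1 was lost with leaving out DMSO library 1 (log2 -0.49) and leaving out nutlin library 3 (adjusted p = 0.0751), against 6.01e-05 to 0.0751 over all 17 alternatives. The call under GSK2830371 was lost with a fit of the compared groups only and leaving out DMSO library 1, nutlin libraries 1 or 3 or GSK2830371 libraries 1 or 3, with log2 values of -0.96 to -0.65 and adjusted p of 0.0692 to 0.227, against 0.000267 to 0.227 over all 17 alternatives.

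The short chains were present in both lines. *COL6A1* measured 425 and 399.6 CPM under DMSO, 614 and 603 under nutlin, 442 and 442 under GSK2830371, and 532 and 488 under the combination in TPC1. In K1 it measured 1192 and 1112 CPM under DMSO, 1187 and 1242 under nutlin, 1099 and 1134 under GSK2830371, and 1054 and 1103 under the combination. *COL6A2* lay at 288 and 281 CPM under DMSO and 337 and 327 under nutlin in TPC1, and at 1054 and 956 and 1016 and 1099 in K1. Both genes had every K1 library above every TPC1 library. They were higher in K1 by log2 1.48 ± 0.07 (edgeR adjusted p = 1.58e-11) and 1.82 ± 0.07 (edgeR adjusted p = 1.86e-12) under DMSO. In TPC1 both nutlin libraries lay above those of DMSO for each gene, a call for *COL6A1* (0.59 ± 0.07, edgeR adjusted p = 0.000128) but not for *COL6A2* (0.26 ± 0.07, edgeR adjusted p = 0.0103). The call was lost with scaling by library size only, a correction for GC content and length and leaving out DMSO library 3 or nutlin library 1, with log2 values of 0.50 to 0.58. Per kb of transcript, *COL6A3* made up 23.1% to 27.3% of the type VI chains in K1 and 0.0891% to 0.456% in TPC1, and *COL6A1* 34.7% to 37.1% and 53.4% to 60.1%. The other chains, *COL6A5* and *COL6A6*, stayed under 1 CPM.

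Fibril-associated collagens sit on the surface of fibrils or link them to other matrix, and 6 of the 10 genes reached 1 CPM. *COL22A1*, a collagen of tissue junctions, had no count in any TPC1 library. Its K1 levels were 3.90 and 3.36 CPM under DMSO, 5.50 and 5.91 under nutlin, 3.06 and 4.10 under GSK2830371, and 7.06 and 6.73 under the combination. The nutlin libraries lay above DMSO, the combination libraries above those, and GSK2830371 overlapped DMSO. Nutlin raised it by log2 0.67 ± 0.15 (edgeR adjusted p = 0.00406) and the combination by 0.90 ± 0.15 (edgeR adjusted p = 0.00022). Under DMSO it was at least 66.0-fold higher in K1 (262 counts against 0). The call under nutlin was lost with leaving out DMSO library 2 (log2 0.56). *COL14A1*, a relative found in dense connective tissue, ran from 0 to 0.260 CPM in TPC1 and 1.05 to 2.59 CPM in K1, higher in K1 by log2 3.96 ± 0.43 (edgeR adjusted p = 3.6e-07). The combination lowered it in K1 (log2 -0.94 ± 0.29, edgeR adjusted p = 0.017). That call was lost with leaving out DMSO library 1 (adjusted p = 0.142) and leaving out combination library 2 (adjusted p = 0.116), against 0.000894 to 0.142 over all 18 alternatives.

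Type IX collagen coats cartilage fibrils, and in TPC1 its chain *COL9A3* rose and its chain *COL9A2* fell. *COL9A3* lay between 0.221 and 0.986 CPM in TPC1 and between 7.14 and 10.2 CPM in K1, higher in K1 under DMSO by log2 5.07 ± 0.29 (edgeR adjusted p = 2.9e-12). In TPC1 it rose by 1.43 ± 0.39 (edgeR adjusted p = 0.0112) under nutlin and by 2.02 ± 0.37 (edgeR adjusted p = 0.00103) under the combination. *COL9A2* ranged from 0.455 to 1.67 CPM in TPC1 and 0.410 to 0.796 CPM in K1, lower in K1 under DMSO (log2 -1.21 ± 0.31, edgeR adjusted p = 0.00253). Its log2 fold change in TPC1 was -1.23 ± 0.32 (edgeR adjusted p = 0.0088) under nutlin and -1.13 ± 0.31 (edgeR adjusted p = 0.0106) under the combination. The nutlin call of *COL9A3* was lost with leaving out DMSO library 3 (adjusted p = 0.0657) and leaving out nutlin library 3 (adjusted p = 0.179), against 0.00428 to 0.179 over all 17 alternatives. That of *COL9A2* was lost with leaving out DMSO library 3 (adjusted p = 0.0638) and leaving out nutlin library 1 (adjusted p = 0.0531), against 0.000415 to 0.0638 over all 17 alternatives. Its call under the combination was lost with leaving out DMSO library 3 (adjusted p = 0.0761) and leaving out combination library 1 (adjusted p = 0.0508), against 0.000862 to 0.0761 over all 17 alternatives. *COL12A1*, at 51.8 to 81.9 CPM in TPC1 and 56.7 to 75.4 CPM in K1, was called under no drug and did not pass the test between lines (log2 -0.17 ± 0.14, edgeR adjusted p = 0.3). *COL16A1*, at 14.3 to 30.2 and 32.0 to 43.2 CPM, was higher in K1 by 1.02 ± 0.09 (edgeR adjusted p = 2.4e-08). Its nutlin value in TPC1, 0.54 ± 0.10 (edgeR adjusted p = 0.00184), was under the fold threshold, and no other drug comparison within a line called it.

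*COL7A1* encodes the anchoring fibrils that tie an epithelial basement membrane to the matrix below. The 250 bases before its start, from the same RefSeq windows, are shown because nutlin raised it strongly in TPC1 and gave no call in K1. They lie at chr3:48632763-48633012 on GRCh37 and are printed on the minus strand, on which the gene is read, with 60.8% G and C. Capitals mark GGGCGG and TATAAA on either strand.
COL7A1: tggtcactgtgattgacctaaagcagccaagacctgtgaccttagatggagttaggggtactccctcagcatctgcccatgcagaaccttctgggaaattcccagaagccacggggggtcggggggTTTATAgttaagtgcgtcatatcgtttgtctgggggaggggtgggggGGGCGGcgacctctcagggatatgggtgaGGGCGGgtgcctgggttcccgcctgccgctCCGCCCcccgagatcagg
GGGCGG is held 2 times on this strand and 1 time on the other, and TATAAA 1 time on the other. No exon of the annotation used covers this region or that of *COL4A5*.

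In TPC1 *COL7A1* measured 34.2 and 23.0 CPM under DMSO, 111 and 84.0 under nutlin, 28.0 and 20 under GSK2830371, and 137 and 109 under the combination. The K1 libraries gave 152 and 141 CPM under DMSO, 159.6 and 156 under nutlin, 109.7 and 109 under GSK2830371, and 139 and 138 under the combination. The TPC1 nutlin and combination libraries lay above those of DMSO and overlapped each other, while GSK2830371 overlapped DMSO. Nutlin raised it by log2 1.81 ± 0.23 (edgeR adjusted p = 0.000126) and the combination by 2.16 ± 0.23 (edgeR adjusted p = 3.05e-05). In K1 nutlin gave 0.12 ± 0.05 (edgeR adjusted p = 0.109) and GSK2830371 -0.41 ± 0.05 (edgeR adjusted p = 0.000479), neither of them a call, the latter with both libraries below those of DMSO. The difference of the nutlin effect between lines was -1.73 ± 0.22 (edgeR adjusted p = 2.14e-05), and under DMSO the gene was higher in K1 by 2.37 ± 0.16 (edgeR adjusted p = 1.69e-09).

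Multiplexins are basement membrane collagens that carry heparan sulfate or chondroitin sulfate. *COL18A1*, the source of endostatin, measured 199 and 166 CPM under DMSO, 387 and 349 under nutlin, 202 and 182 under GSK2830371, and 295 and 266 under the combination in TPC1. In K1 it measured 5.43 and 4.90 CPM under DMSO, 8.07 and 8.93 under nutlin, 4.98 and 5.29 under GSK2830371, and 8.73 and 10.3 under the combination. In both lines nutlin and combination libraries lay above DMSO and GSK2830371 overlapped DMSO. Nutlin raised it by log2 1.04 ± 0.11 (edgeR adjusted p = 3.28e-05) in TPC1 and 0.73 ± 0.12 (edgeR adjusted p = 0.000487) in K1. The combination raised it by 0.67 ± 0.11 (edgeR adjusted p = 0.000419) and 0.85 ± 0.12 (edgeR adjusted p = 7.08e-05). The nutlin effects did not pass the test of a difference between lines (-0.35 ± 0.15, edgeR adjusted p = 0.0954). Every TPC1 library was above every K1 library, with a log2 difference of K1 from TPC1 of -5.15 ± 0.11 (edgeR adjusted p = 1.28e-15) under DMSO. The TPC1 call under the combination was lost with leaving out DMSO library 3 (log2 0.57).

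*COL15A1*, the other multiplexin, rose in TPC1 and fell in K1 under the combination, and is given by library as a choice made after its values were seen. In TPC1 it measured 0.0813 and 0.110 CPM under DMSO, 0.844 and 0.829 under nutlin, 0.0633 and 0.0913 under GSK2830371, and 5.18 and 3.80 under the combination, the DMSO values being 3 and 8 counts. Its K1 levels were 0.825 and 0.861 CPM under DMSO, 0.381 and 0.457 under nutlin, 0.725 and 0.827 under GSK2830371, and 0.188 and 0.465 under the combination. Nutlin lay above DMSO and the combination above nutlin in TPC1, whereas in K1 both groups lay below DMSO. It rose in TPC1 by log2 3.06 ± 0.46 (edgeR adjusted p = 8.98e-05) under nutlin and 5.49 ± 0.44 (edgeR adjusted p = 4.83e-07) under the combination, which exceeded nutlin alone by 2.43 ± 0.23 (edgeR adjusted p = 0.000173). In TPC1 it would not have passed the filter on low counts without nutlin and combination libraries. Its calls against DMSO there do not stand apart from the rise. In K1 it fell under the combination (-1.39 ± 0.38, edgeR adjusted p = 0.00912), and the nutlin value of -0.98 ± 0.37 (edgeR adjusted p = 0.0567) was no call. Differences between lines were -4.07 ± 0.57 (edgeR adjusted p = 2.56e-05) for nutlin and -6.89 ± 0.57 (edgeR adjusted p = 2.65e-08) for the combination, and the gene was higher in K1 under DMSO by 3.02 ± 0.47 (edgeR adjusted p = 5.64e-06). The K1 call was lost with leaving out combination library 1 (adjusted p = 0.101), against 0.00288 to 0.101 over all 18 alternatives.

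*COL8A1*, a short network collagen of vessels and the eye, was lowered in TPC1 by each drug. It measured 26.7 and 24.3 CPM under DMSO, 17.0 and 15.7 under nutlin, 17.5 and 17.2 under GSK2830371, and 8.41 and 9.94 under the combination in TPC1. The K1 libraries gave 12.5 and 9.42 CPM under DMSO, 10.2 and 10.3 under nutlin, 10.6 and 12.2 under GSK2830371, and 10.6 and 9.80 under the combination. All drug-treated TPC1 libraries lay below those of DMSO, the combination lowest. The log2 fold changes were -0.61 ± 0.10 (edgeR adjusted p = 0.00089) under nutlin, -0.60 ± 0.10 (edgeR adjusted p = 0.0227) under GSK2830371 and -1.41 ± 0.11 (edgeR adjusted p = 3.55e-06) under the combination, which was also lower than nutlin alone (-0.80 ± 0.11, edgeR adjusted p = 0.00109). No drug gave a call in K1, and the combination effect differed between lines by 1.25 ± 0.18 (edgeR adjusted p = 3.34e-05). The nutlin call was lost with leaving out DMSO library 1 (log2 -0.55) and leaving out nutlin library 3 (log2 -0.55). That under GSK2830371 was lost with scaling by library size only, a fit of the compared groups only and leaving out DMSO libraries 1 or 3, nutlin libraries 1 or 3 or GSK2830371 libraries 1 or 3, with log2 values of -0.66 to -0.54 and adjusted p of 0.0253 to 0.173, against 0.000215 to 0.173 over all 17 alternatives. Its partner *COL8A2*, under 1 CPM, had 28 counts under DMSO, 23 under nutlin and 4 under the combination in TPC1, a ratio to DMSO of 0.157 (95% counting interval 0.0399 to 0.448).

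Transmembrane collagens hold cells to the matrix. *COL17A1*, a hemidesmosome component of epithelia, measured 34.7 and 33.5 CPM under DMSO, 46.2 and 42.4 under nutlin, 26.5 and 24.4 under GSK2830371, and 34.6 and 30.01 under the combination in TPC1. In K1 it measured 12.8 and 13.5 CPM under DMSO, 11.8 and 14.6 under nutlin, 11.1 and 10.2 under GSK2830371, and 5.93 and 7.45 under the combination. In K1 the combination libraries were the lowest and nutlin overlapped DMSO, while in TPC1 the nutlin libraries were the highest. The combination lowered it in K1, with log2 fold changes of -1.01 ± 0.13 (edgeR adjusted p = 2.48e-05) against DMSO and -1.03 ± 0.13 (edgeR adjusted p = 0.000315) against nutlin alone, beside 0.02 ± 0.12 (edgeR adjusted p = 0.934) for nutlin, which gave no call. No drug was called against DMSO in TPC1, where the combination gave -0.03 ± 0.09 (edgeR adjusted p = 0.811), and the combination effect differed between lines by -1.01 ± 0.16 (edgeR adjusted p = 0.000103). Under DMSO it was lower in K1 (-1.38 ± 0.11, edgeR adjusted p = 8.59e-09). *COL13A1* lay at 4.31 to 6.30 CPM in TPC1 and 2.92 to 5.49 CPM in K1, with no call. *COL25A1*, a neuronal transmembrane collagen, had no count in the TPC1 DMSO libraries and 12 under nutlin, at least 2.28-fold higher, which edgeR called. In TPC1 it passed the filter on low counts only through nutlin and combination libraries, so the call does not stand apart from the rise. The call was lost with leaving out DMSO library 3 (adjusted p = 0.111) and leaving out nutlin library 1 (adjusted p = 0.0537), against 0.0121 to 0.111 over all 13 alternatives. K1 held 26 and 39 counts under DMSO, at least 16.4-fold above TPC1.

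**Figure D3:**
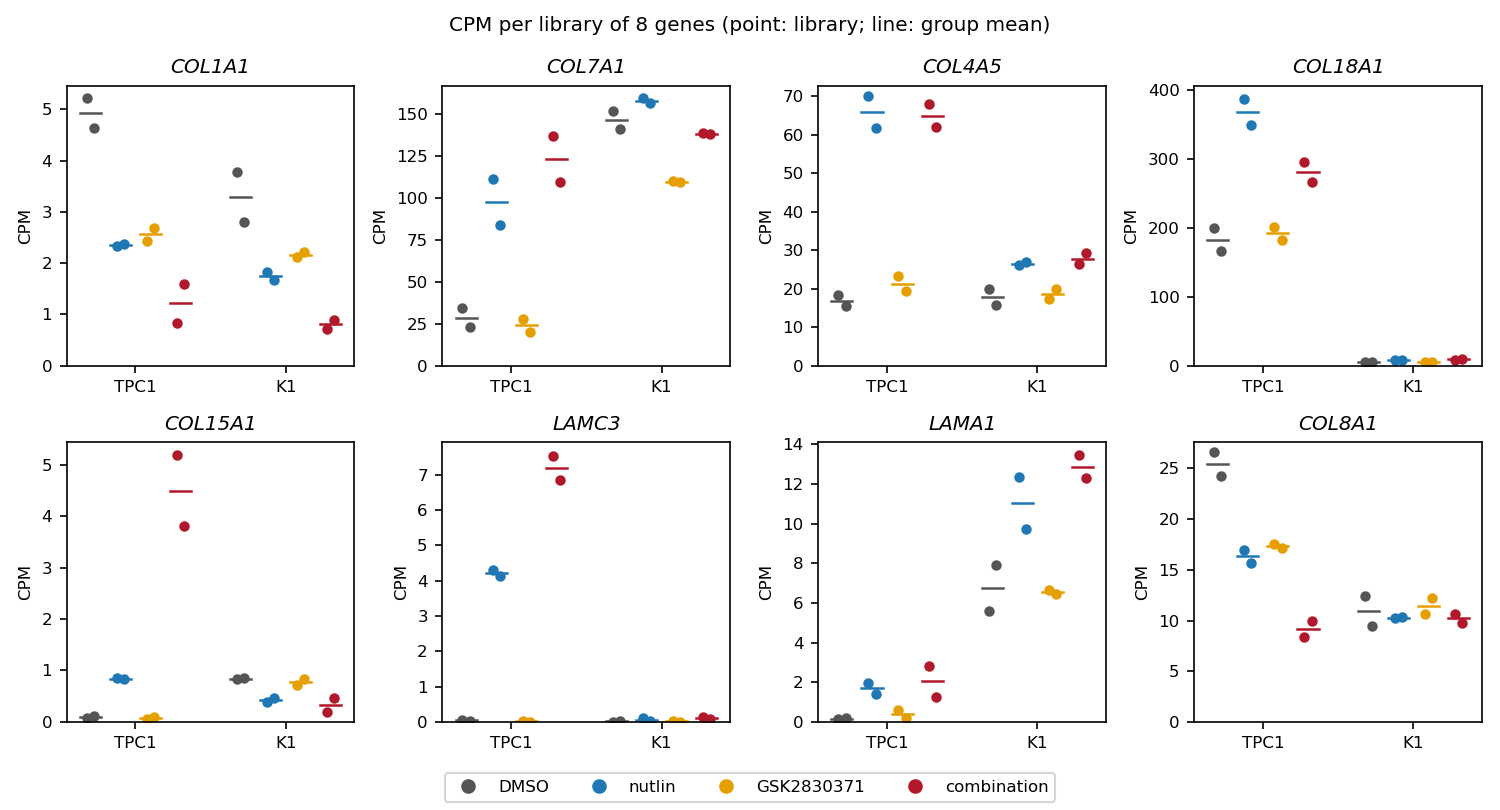
CPM of 8 genes in each library of both lines, each panel on its own linear axis from 0, with points for libraries, lines for group means and colours for treatments. *COL4A5*, *COL7A1*, *COL15A1* and *LAMC3* rise in TPC1 with nutlin and the combination, *COL1A1* falls in both lines, and *COL18A1* rises in both at very different levels.

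The alpha chain decides which receptors a laminin binds and in which tissue it is found, and the lines differed in the most abundant alpha chain RNA. *LAMA3* did not pass the test between lines under DMSO (log2 -0.03 ± 0.16, edgeR adjusted p = 0.882). *LAMA4*, the alpha chain of vessels, muscle and other mesenchymal tissue, measured 155 and 149.7 CPM under DMSO, 174 and 187 under nutlin, 151 and 157 under GSK2830371, and 146 and 149 under the combination in K1. In TPC1 it measured 0.0271 and 0.0552 CPM under DMSO, 0.0325 and 0.0154 under nutlin, 0.0633 and 0 under GSK2830371, and 0.108 and 0 under the combination, with 1 and 4 counts in the DMSO libraries. *LAMA5*, the widespread alpha chain of adult epithelia, showed the reverse, at 229.7 and 139.8 CPM under DMSO, 287 and 226 under nutlin, 271 and 184 under GSK2830371, and 309 and 229.5 under the combination in TPC1. The K1 libraries held 3.24 and 3.34 CPM under DMSO, 2.67 and 2.92 under nutlin, 3.25 and 3.97 under GSK2830371, and 4.02 and 4.10 under the combination. Neither gene overlapped between the lines, and in TPC1 library 1 was above library 3 for *LAMA5* under every treatment. Under DMSO the log2 difference of K1 from TPC1 was 11.60 (edgeR adjusted p = 1.02e-15) for *LAMA4* and -5.81 ± 0.25 (edgeR adjusted p = 3.81e-12) for *LAMA5*. With so few counts in TPC1, the ratio for *LAMA4* was 3329 (95% counting interval 1426 to 10250). Per kb of transcript *LAMA5* made up 80.3% to 86.8% of the alpha chains in the TPC1 libraries and 0.813% to 1.41% in those of K1, and *LAMA4* 79.9% to 84.9% in K1 and at most 0.0509% in TPC1. Neither was called under any drug, although some alternatives called *LAMA5* in TPC1, and *LAMA4* was tested in K1 alone. Nutlin gave *LAMA4* 0.26 ± 0.06 (edgeR adjusted p = 0.00288) in K1, with both libraries above those of DMSO but under the fold threshold. For *LAMA5* in TPC1 the log2 fold change was 0.51 ± 0.25 (edgeR adjusted p = 0.119) under nutlin and 0.59 ± 0.25 (edgeR adjusted p = 0.0668) under the combination. Within each library number every drug-treated TPC1 library lay above that of DMSO. Both values became calls with leaving out DMSO library 1 (log2 0.90, adjusted p = 0.0157, and 0.99, adjusted p = 0.00887), and the combination also with the library number as a block, a fit of the compared groups only and leaving out GSK2830371 libraries 1 or 3 (adjusted p of 1.53e-06 to 0.048). Over all 17 alternatives the adjusted p ran from 9e-06 to 0.489 for nutlin and from 1.53e-06 to 0.318 for the combination.

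**Figure D4:**
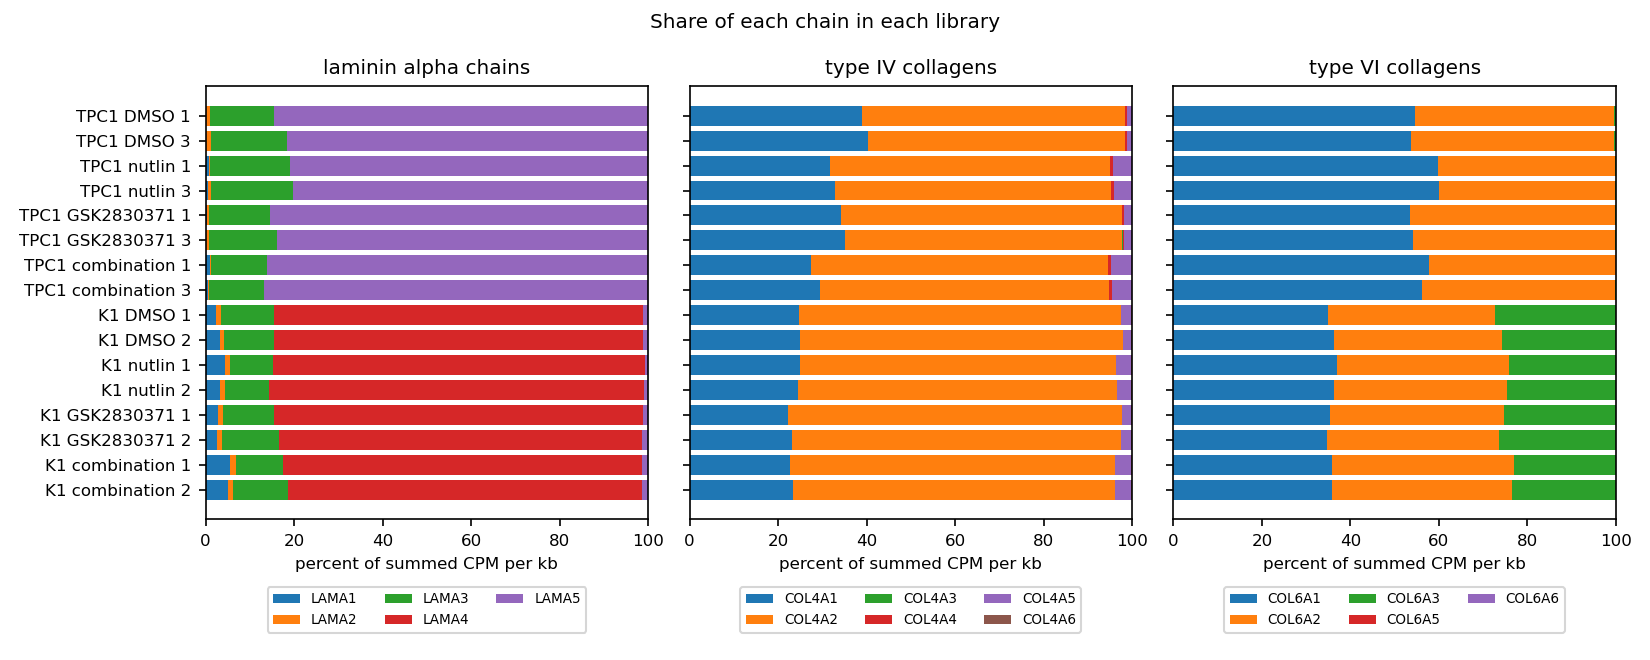
Share of each chain in the summed CPM per kb of the laminin alpha chains, the type IV collagens and the type VI collagens, with 1 bar per library named by line, treatment and library number. *LAMA5* fills most of each TPC1 bar (80.3% to 86.8%) and *LAMA4* most of each K1 bar (79.9% to 84.9%), and *COL6A3* is visible in the K1 bars but not in those of TPC1.

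*LAMA1*, the alpha chain of the early embryo, rose with nutlin in both lines. It measured 0.136 and 0.179 CPM under DMSO, 1.98 and 1.41 under nutlin, 0.602 and 0.209 under GSK2830371, and 2.82 and 1.26 under the combination in TPC1. Its K1 levels were 5.57 and 7.91 CPM under DMSO, 12.3 and 9.75 under nutlin, 6.65 and 6.45 under GSK2830371, and 13.4 and 12.3 under the combination. In both lines nutlin and combination libraries lay above DMSO. Nutlin raised it by log2 3.36 ± 0.59 (edgeR adjusted p = 0.00105) in TPC1 and 0.71 ± 0.15 (edgeR adjusted p = 0.00257) in K1, and the combination by 3.63 ± 0.58 (edgeR adjusted p = 0.000463) and 0.90 ± 0.15 (edgeR adjusted p = 0.000229). The nutlin effect differed between lines by -2.64 ± 0.59 (edgeR adjusted p = 0.00254), and under DMSO K1 was higher by 5.32 ± 0.42 (edgeR adjusted p = 8.35e-09). The K1 call under nutlin was lost with leaving out DMSO library 1 (log2 0.49) and leaving out nutlin library 1 (log2 0.55). *LAMA3*, the alpha chain of the laminin at hemidesmosomes, lay at 36.8 and 27.2 CPM under DMSO, 59.6 and 48.8 under nutlin, with 41.7 and 30.4 under the combination in TPC1, and at 27.7 to 36.6 CPM in K1. The nutlin libraries lay above DMSO, a rise of 0.80 ± 0.19 (edgeR adjusted p = 0.00653), while the combination overlapped DMSO (0.22 ± 0.19, edgeR adjusted p = 0.335). *LAMA2*, the muscle alpha chain, at 0.636 to 1.90 CPM in TPC1 and 2.26 to 3.29 CPM in K1, fell under the combination in TPC1 (-1.14 ± 0.28, edgeR adjusted p = 0.00615). That call was lost with leaving out combination library 3 (adjusted p = 0.0584), against 0.000332 to 0.0584 over all 17 alternatives.

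Beta chains pair with a gamma chain in every laminin. *LAMB3*, the beta chain of the hemidesmosome laminin, measured 1012 and 976 CPM under DMSO, 974 and 998 under nutlin, 1251 and 1175 under GSK2830371, and 744 and 763 under the combination in TPC1. The K1 libraries gave 746 and 765 CPM under DMSO, 674 and 644 under nutlin, 750.1 and 706 under GSK2830371, and 571 and 554 under the combination. In both lines the combination libraries lay below DMSO, while in TPC1 those of GSK2830371 lay above and those of nutlin overlapped DMSO. No drug comparison within a line called it, with log2 fold changes under the combination of -0.35 ± 0.08 (edgeR adjusted p = 0.00312) in TPC1 and -0.46 ± 0.05 (edgeR adjusted p = 1.01e-05) in K1. Per kb, *LAMB3* made up 77.5% to 83.7% of the beta chains in TPC1 and 68.0% to 74.5% in K1. *LAMB1*, the common beta chain, ran from 145 to 254 CPM in TPC1 and 242 to 296 CPM in K1 and was called under no drug. *LAMB2*, the beta chain of muscle and kidney, lay at 97.8 and 82.4 CPM under DMSO, 162 and 146 under nutlin, with 129.8 and 129 under the combination in TPC1, both groups above DMSO. Nutlin raised it by 0.81 ± 0.10 (edgeR adjusted p = 0.000147), and the combination value of 0.58 ± 0.10 (edgeR adjusted p = 0.00095) was just under the fold threshold. In K1 *LAMB2* (88.5 to 126 CPM) gave 0.40 ± 0.06 (edgeR adjusted p = 5.98e-05) under the combination, also under that threshold. *LAMB4* stayed under 1 CPM.

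Of the gamma chains, *LAMC1*, part of most laminins, measured 1281 and 1017 CPM under DMSO, 1616 and 1458 under nutlin, 1114 and 975 under GSK2830371, and 1468 and 1261 under the combination in TPC1. In K1 it measured 1089 and 965 CPM under DMSO, 1056 and 1145 under nutlin, 989.7 and 1083 under GSK2830371, and 975 and 1018 under the combination. It was called under no drug, with a log2 fold change of 0.45 ± 0.13 (edgeR adjusted p = 0.0137) under nutlin in TPC1, under the fold threshold. *LAMC3*, a chain of nervous tissue and some epithelia, appeared in TPC1 with nutlin. It measured 0.0542 and 0.0276 CPM under DMSO, 4.29 and 4.13 under nutlin, 0.0317 and 0 under GSK2830371, and 7.54 and 6.84 under the combination in TPC1. The DMSO libraries held 2 and 2 counts, those of nutlin 132 and 269 and those of the combination 278 and 430, so that the combination lay above nutlin and both far above DMSO. The ratio to DMSO was 114 (95% counting interval 44.3 to 422) for nutlin and 194 (95% counting interval 75.5 to 714) for the combination, both called (edgeR adjusted p = 4.31e-07 and 1.03e-07). In TPC1 the gene would not have passed the filter on low counts without nutlin and combination libraries. Its calls against DMSO there do not stand apart from the rise. The combination exceeded nutlin alone by log2 0.79 ± 0.18 (edgeR adjusted p = 0.0109). That call was lost with leaving out nutlin library 1 (adjusted p = 0.062) and leaving out nutlin library 3 (adjusted p = 0.0926), against 0.000171 to 0.0926 over all 17 alternatives. K1 libraries held at most 4 counts of *LAMC3*, and the test between lines did not pass for nutlin (edgeR adjusted p = 0.127) or the combination (0.103).

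An interaction term asked whether the effect of both drugs differed from the sum of each on the log2 scale. In TPC1 it was called for 4 of the collagen and laminin genes that were tested, beside 6.32% of all genes tested, and in K1 for 1, beside 2.44%. The TPC1 count was 7 with the library number as a block, and 0 with either nutlin library or GSK2830371 library 1 left out, 1 without GSK2830371 library 3 and 2 without DMSO library 3 or combination library 3. The combination exceeded the sum for *COL15A1* (2.75 ± 0.67, edgeR adjusted p = 0.0284) and *COL5A1* (0.59 ± 0.15, edgeR adjusted p = 0.0488) and was below it for *LAMB1* (-0.65 ± 0.14, edgeR adjusted p = 0.023) and *LAMB3* (-0.61 ± 0.11, edgeR adjusted p = 0.0126) in TPC1. In K1 it was below for *COL17A1* (-0.73 ± 0.18, edgeR adjusted p = 0.026). In TPC1 *COL15A1* would not have passed the filter on low counts without nutlin and combination libraries. Its interaction call therefore does not stand apart from the rise that admitted it. The call of *COL15A1* was lost with leaving out DMSO library 3, nutlin libraries 1 or 3 or GSK2830371 libraries 1 or 3, with log2 values of 2.44 to 3.12 and adjusted p of 0.0761 to 0.207, against 0.00398 to 0.207 over all 16 alternatives. For *COL5A1* it was lost with scaling by library size only, no filter on low counts and leaving out DMSO library 1, nutlin libraries 1 or 3, GSK2830371 libraries 1 or 3 or combination libraries 1 or 3, with log2 values of 0.45 to 0.69 and adjusted p of 0.00734 to 0.182, against 3.57e-05 to 0.182 over all 16 alternatives. *LAMB1* lost it with a correction for GC content and length and leaving out DMSO library 3, nutlin libraries 1 or 3, GSK2830371 libraries 1 or 3 or combination library 3, with log2 values of -0.70 to -0.53 and adjusted p of 0.00157 to 0.0991, against 5.25e-05 to 0.0991 over all 16 alternatives. *LAMB3* lost it with a correction for GC content and length and leaving out nutlin libraries 1 or 3, GSK2830371 library 1 or combination library 1, with log2 values of -0.62 to -0.51 and adjusted p of 0.00407 to 0.0819, against 7.8e-05 to 0.0819 over all 16 alternatives. *COL17A1* lost it with a correction for GC content and length and leaving out DMSO libraries 1 or 2, nutlin library 2, GSK2830371 library 1 or combination libraries 1 or 2, with log2 values of -0.89 to -0.55 and adjusted p of 0.0569 to 0.148, against 0.000852 to 0.148 over all 16 alternatives.

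Nutlin effects differed between the lines for more genes than those above. The effect was lower in K1 than in TPC1 for *COL5A1* (-0.85 ± 0.11, edgeR adjusted p = 2.82e-05), *COL5A2* (-0.60 ± 0.17, edgeR adjusted p = 0.0109), *COL16A1* (-0.60 ± 0.12, edgeR adjusted p = 0.00143), *COL9A3* (-1.22 ± 0.35, edgeR adjusted p = 0.0113) and *LAMA3* (-0.83 ± 0.23, edgeR adjusted p = 0.00992), and higher for *COL6A3* (0.59 ± 0.18, edgeR adjusted p = 0.0191). *COL25A1* also differed (edgeR adjusted p = 0.0192), with the fold itself not given because TPC1 held 0 counts under DMSO. The difference of *COL5A2* was lost with DESeq2 size factors, scaling by library size only, edgeR's own filter, DESeq2, a correction for GC content and length and leaving out TPC1 DMSO library 3, TPC1 nutlin library 1, K1 DMSO library 1 or K1 nutlin library 1, with log2 values of -0.58 to -0.47 and adjusted p of 0.00586 to 0.0628, against 5.47e-05 to 0.0628 over all 23 alternatives. *COL16A1* lost it with DESeq2 size factors, scaling by library size only, edgeR's own filter, DESeq2, a correction for GC content and length and leaving out TPC1 DMSO library 3, TPC1 nutlin library 1 or K1 DMSO library 1, with log2 values of -0.57 to -0.42. *COL9A3* lost it with leaving out TPC1 DMSO library 3 (adjusted p = 0.0762) and leaving out TPC1 nutlin library 3 (adjusted p = 0.377), against 0.00328 to 0.377 over all 23 alternatives. *COL6A3* lost it with no filter on low counts and leaving out TPC1 DMSO library 1, TPC1 nutlin library 3, TPC1 combination library 3, K1 DMSO library 2, K1 nutlin library 2 or K1 combination library 1, with log2 values of 0.41 to 0.57 and adjusted p of 0.000951 to 0.138, against 0.000513 to 0.138 over all 23 alternatives. *COL25A1* lost it with leaving out TPC1 DMSO library 3 (adjusted p = 0.104) and leaving out TPC1 nutlin library 3 (adjusted p = 0.0949), against 0.00236 to 0.104 over all 23 alternatives.

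The combination effect was also lower in K1 than in TPC1 for *COL5A1* (-1.27 ± 0.11, edgeR adjusted p = 2.51e-07), *COL7A1* (-2.31 ± 0.22, edgeR adjusted p = 6.23e-07), *COL9A3* (-1.71 ± 0.34, edgeR adjusted p = 0.000427), *COL27A1* (-0.67 ± 0.23, edgeR adjusted p = 0.0301) and *LAMA1* (-2.70 ± 0.58, edgeR adjusted p = 0.00138). It was higher in K1 for *LAMA2* (1.44 ± 0.32, edgeR adjusted p = 0.00179), as for *COL6A3* and *COL8A1* above and for *COL8A2*, which stayed under 1 CPM. The difference of *COL27A1* was lost with scaling by library size only, a correction for GC content and length and leaving out TPC1 DMSO library 3, TPC1 combination library 1, K1 DMSO library 2 or K1 combination library 2, with log2 values of -0.61 to -0.45 and adjusted p of 0.00749 to 0.122, against 5.54e-05 to 0.122 over all 23 alternatives.

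What the genes share in front of their start sites was described with the RefSeq promoter table, which held 35116 windows. Windows on chromosome 8 were kept among these but not looked up for the 56 genes. Elsewhere 41 of the 56 genes matched, with 55 windows, and each of these was found at 1 place in GRCh37. In the 250 bases before the start, on either strand, GGGCGG occurred in 32 of the 55 windows, beside 42.6% of all windows, CCAAT in 14, beside 32.0%, TATAAA in 8, beside 10.7%, and TGANTCA in 3, beside 6.57%. The 10-letter p53 consensus decamer occurred in 1 window, that of *COL17A1*, beside 5.57% of all windows, and in none of the regions printed above. A match describes the letters only. No motif contains another. *COL14A1* and *COL22A1* lie on chromosome 8 and so were not looked up. Among the other genes not matched were *COL1A1*, *COL1A2*, *COL20A1*, *COL2A1*, *COL3A1*, *COL5A2*, *COL6A1*, *COL6A5*, *COL8A1*, *COL9A3*, *LAMA1* and *LAMC3*. The start sites of *COL4A4* and *COL4A3* lie 418 bases apart, and those of *COL4A6* and *COL4A5* 379 or 1415 bases, by which start of *COL4A6* is taken.

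Genes that act on these proteins were taken from fixed lists, and all their values against DMSO share the DMSO libraries. For comparison, nutlin raised 17.5% and lowered 18% of all genes tested in TPC1, where the combination raised 22.5% and lowered 21.7%. In K1 these shares were 3.84% and 5.43% for nutlin, with 7.62% and 8.09% for the combination. Counts are from edgeR, with that at an unadjusted p under 0.05 and that in DESeq2 beside a count of 0. Among 21 genes of collagen folding and secretion there were 5 raised and 3 lowered under nutlin, with 3 and 3 under the combination in TPC1, and in K1 1 and 0 (1 unadjusted, 0 in DESeq2) under nutlin and 2 and 0 (2 unadjusted, 0 in DESeq2) under the combination. The median log2 fold changes in that order were 0.16, 0.24, 0.19 and 0.35, against -0.00185, 0.00352, -0.00166 and 0.0116 over all genes. *P4HA2*, a prolyl hydroxylase subunit, lay at 42.4 and 43.6 CPM under DMSO and 98.4 and 96.9 under nutlin in TPC1, and at 76.0 and 71.6 and 118 and 125 in K1. Both nutlin libraries were above both of DMSO in each line, with 1.21 ± 0.07 (edgeR adjusted p = 9.02e-07) and 0.73 ± 0.06 (edgeR adjusted p = 4.95e-07). In TPC1 nutlin also raised *KLHL12* (1.21 ± 0.07), an adaptor for large transport carriers, and lowered the collagen chaperone gene *SERPINH1* (-1.02 ± 0.11) and *LEPREL2* (-0.75 ± 0.08), a prolyl 3-hydroxylase.

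Of 15 genes of collagen trimming and cross-linking, 14 were tested in TPC1 and 15 in K1, with 5 raised and 5 lowered under nutlin, with 5 and 6 under the combination in TPC1, and in K1 2 and 0 (2 unadjusted, 0 in DESeq2) under nutlin, with 2 and 1 under the combination, and medians of 0.03, -0.28, 0.03 and 0.09. In TPC1 nutlin raised the cross-linking oxidase *LOXL1* (1.76 ± 0.10) and the procollagen C-proteinase *BMP1* (1.23 ± 0.08), and lowered *ADAMTS3* (-1.17 ± 0.19), an N-proteinase, and *PCOLCE2* (-0.80 ± 0.10), an enhancer of the C-proteinase. In K1 it raised *TLL2* (0.86 ± 0.10) and *ADAMTS14* (0.78 ± 0.10). Basement membrane partners numbered 10, of which 9 were tested, with 4 raised and 1 lowered under nutlin, with 3 and 3 under the combination in TPC1, and in K1 0 (4 unadjusted, 0 in DESeq2) and 0 (1 unadjusted, 0 in DESeq2) under nutlin and 1 and 0 (2 unadjusted, 0 in DESeq2) under the combination, and medians of -0.07, -0.16, 0.13 and 0.01. Agrin gene *AGRN* went from 969 and 699.9 CPM under DMSO to 2293 and 1999.5 under nutlin in TPC1, a rise of 1.40 ± 0.16 (edgeR adjusted p = 7.72e-05) with no overlap. Of the nidogens, *NID2* rose (1.14 ± 0.10) and *NID1* fell (-0.66 ± 0.09), a call lost with leaving out DMSO library 1 (log2 -0.54). The 15 receptors showed 6 raised and 0 (1 unadjusted, 0 in DESeq2) lowered under nutlin and 6 and 0 (1 unadjusted, 0 in DESeq2) under the combination in TPC1, and in K1 0 (3 unadjusted, 0 in DESeq2) and 0 (1 unadjusted, 0 in DESeq2) under nutlin and 0 (5 unadjusted, 0 in DESeq2) and 1 under the combination, with medians of 0.30, 0.51, 0.05 and 0.01. They included the collagen receptor kinase *DDR1* (1.68 ± 0.07) and the integrin chain *ITGA2* (0.85 ± 0.17) in TPC1.

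Matrix metalloproteinases and their inhibitors made up 19 genes, with 12 tested in TPC1 and 14 in K1. They gave 2 raised and 2 lowered under nutlin, with 2 and 3 under the combination in TPC1, and in K1 0 (2 unadjusted, 0 in DESeq2) and 0 (0 unadjusted, 0 in DESeq2) under nutlin, with 1 and 1 under the combination, and medians of 0.26, -0.10, 0.12 and 0.14. *MMP14*, a membrane-bound collagenase, lay at 795 and 739 CPM under DMSO and 2156 and 2103 under nutlin in TPC1, a rise of 1.51 ± 0.10 (edgeR adjusted p = 1.57e-06) without overlap, beside *MMP15* (1.03 ± 0.10), while *MMP16* (-0.80 ± 0.21) and *MMP17* (-0.71 ± 0.10) fell. Among 15 ligands, receptors and targets of TGF-beta, a main inducer of collagen genes, there were 4 raised and 2 lowered under nutlin, with 5 and 4 under the combination in TPC1, and in K1 1 and 0 (4 unadjusted, 0 in DESeq2) under nutlin, with 4 and 1 under the combination, with medians of -0.06, -0.22, -0.01 and -0.26. The receptor gene *TGFBR1* rose in TPC1 (1.45 ± 0.11) and the ligand genes *TGFB2* (-1.32 ± 0.13) and *TGFB1* (-0.65 ± 0.16) fell. The call of *MMP16* was lost with leaving out DMSO library 1 (adjusted p = 0.0634) and leaving out nutlin library 3 (adjusted p = 0.0887), against 9.23e-07 to 0.0887 over all 17 alternatives. That of *TGFB1* was lost with leaving out DMSO library 3 (log2 -0.50) and leaving out nutlin library 1 (adjusted p = 0.058), against 7.7e-07 to 0.058 over all 17 alternatives.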

How the data were processed

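The authors sequenced strand-specific libraries of polyadenylated RNA as single-end reads, and aligned them to GRCh37 (hg19) with TopHat2 2.0.13 and Bowtie2 2.2.3.0, removed low-quality alignments with SAMtools, marked duplicates with Picard 1.129, and deposited whole-number HTSeq 0.6.1 counts per gene, made with the strand taken into account. Of the 25369 genes, 4539 had no count. Median library totals were 49874952 counts in TPC1 and 32046088.5 in K1. The removal of low-quality alignments drops reads that fit near-identical copies equally well, so levels in such stretches are uncertain.

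From these counts, CPM was computed per library, and levels between chains were compared per kb of transcript. The length was that of 1 canonical transcript per gene. Other transcripts of a gene, such as those from another start of *LAMA3*, were not told apart, so the shares are approximate. Each line was tested apart (8 libraries, 4 groups, 4 residual degrees of freedom) with edgeR 4.0.16 (limma 3.58.1, R 4.3.3) by its quasi-likelihood test, with TMM normalization (factors 0.961 to 1.045 in TPC1 and 0.981 to 1.027 in K1), over the 15273 and 15900 genes above 0.1 CPM in at least 2 libraries, and differences between lines were tested in a single fit of all 16 libraries over 16738 genes (factors 0.938 to 1.061). P-values were adjusted by Benjamini-Hochberg over all genes tested, and calls needed an adjusted p under 0.05 and a fold change above 1.5. The SE is the log2 fold change divided by the square root of its F statistic. Where it fell below the counting error of the summed counts, that error or a 95% counting interval of the ratio is given instead. A group without counts was set to a floor of 3 counts per library. Alternatives were DESeq2 1.42.0 size factors and its Wald test, library size only, other filters, the compared groups only, the library number as a block, a GC content and length correction, and leaving out each library. A check of the tests on simulated data was also run, and no value given here comes from it. Tables and plots used Python 3.11.15, pandas 2.3.3, scipy 1.17.1 and matplotlib 3.10.9.

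Given by library were the 4 genes with the highest mean CPM per line under DMSO, per line and comparison the 3 largest rises and 3 largest falls among calls whose higher group averaged at least 5 CPM and whose libraries did not overlap, for the lines under DMSO the 3 largest differences in each direction, and *CDKN1A* and *MDM2* as a treatment check. Of the other lists, the 2 largest called rises and 2 largest called falls under nutlin per line were named, again with at least 5 CPM. Genes and lists were chosen with earlier results of these data known. Some genes are counted in the totals but not reported here.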

Additional observations from a re-analysis of the deposited data

Results flagged for a closer look

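The drugs acted unequally on the lines for the genes below, by the test of the difference itself in the single edgeR fit of all 16 libraries. Over all genes tested, this test called 19.2% for nutlin and 25.7% for the combination, and the counts of collagen and laminin genes lay near those shares. For nutlin the calls of *COL5A2*, *COL16A1*, *COL9A3*, *COL6A3* and *COL25A1* were lost with some alternatives, as given above. So was that of *COL27A1* for the combination. Values are log2 differences of the drug effect against DMSO, K1 minus TPC1, so that a negative value is a lower effect in K1. For nutlin the difference was -4.07 for *COL15A1*, -2.64 for *LAMA1*, -1.73 for *COL7A1*, -1.45 for *COL4A5*, -1.22 for *COL9A3*, -0.85 for *COL5A1*, -0.83 for *LAMA3*, -0.60 for *COL5A2*, -0.60 for *COL16A1* and 0.59 for *COL6A3*. *COL25A1*, with 0 counts under DMSO in TPC1, differed at an edgeR adjusted p of 0.0192, and no size is given. For the combination the difference was -6.89 for *COL15A1*, -2.70 for *LAMA1*, -2.31 for *COL7A1*, -1.71 for *COL9A3*, -1.42 for *COL4A5*, -1.27 for *COL5A1*, -1.01 for *COL17A1* and -0.67 for *COL27A1*. It was positive for *LAMA2* (1.44), *COL6A3* (1.35) and *COL8A1* (1.25), which fell in TPC1 under the combination and were not called in K1.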

How the results depend on the processing

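Counts of genes called by edgeR stayed within 1.5 times of those reported, except as follows, and the cause was not tested. Genes lowered by GSK2830371 in TPC1 numbered 1 with scaling by library size only, 0 with the compared groups only and 4 with GC content and length correction and the replicate block, against 2. Genes with an interaction in TPC1 numbered 7 with the replicate block, against 4. In K1 the genes lowered by nutlin numbered 2 with no filter, the compared groups only and the crossed replicate block, against 1. The 1 gene raised by GSK2830371 in K1 was not called (0) with the compared groups only or GC content and length correction without or with the block. The count was also 0 with DESeq2's Wald test, which gave this gene no adjusted p, so that no call was lost there. The 1 lowered there was not called (0) with DESeq2's Wald test or the compared groups only, and the 1 with an interaction in K1 not (0) with GC content and length correction, without or with the block. The correction and the crossed block were chosen after seeing the data. All 56 genes had a length and GC value, but of all symbols 77.5% did, so over the other genes the correction is incomplete. The 37 genes at 1 CPM would be 39 at 0.5 CPM and 29 at 5 CPM. No called value changed sign under any alternative run.

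Leaving out 1 library leaves its group with a lone one, assumed to vary like the other groups. These fits had no block, so the groups also differ in their library numbers. A call lost in this way and a difference between library numbers cannot be told apart. In TPC1 the counts then ranged from 11 to 20 raised and 2 to 5 lowered for nutlin, 0 to 0 and 0 to 3 for GSK2830371, 10 to 15 and 5 to 6 for the combination, 1 to 3 and 2 to 4 for the combination against nutlin, and 0 to 3 for the interaction. In K1 they ranged from 2 to 5 and 1 to 2 for nutlin, 0 to 1 and 0 to 1 for GSK2830371, 5 to 6 and 3 to 4 for the combination, 0 to 0 and 1 to 2 for the combination against nutlin, and 0 to 1 for the interaction. Between the lines under DMSO, 18 to 21 genes were higher and 9 to 11 lower in K1, and 8 to 13 and 11 to 16 differed in the nutlin and combination effects.

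The labels give library numbers but no shared culture or day, so the block is an alternative only, and in TPC1 it rests on the numbers of the count columns, 1 and 3, which differ from the labels' 1 and 2. Deviations of libraries with the same number correlated at 0.496 to 0.696 across 12303 genes in TPC1. In K1, across 12546 genes, they correlated at -0.357 to -0.288 between DMSO and the drug groups and at 0.146 to 0.376 among the latter. With the block, raised and lowered genes in TPC1 numbered 16 and 5 for nutlin, 0 and 3 for GSK2830371, 12 and 6 for the combination and 3 and 5 for the combination against nutlin, with 7 interactions, the 1 count that the block moved by over 1.5 times. In K1 they were 4 and 1, 1 and 1, 6 and 4 and 0 and 2, with 1 interaction, and between lines 19 and 10, with 11 and 15 differing effects. With crossed pairing in K1, they were 5 and 2 for nutlin, 1 and 1 for GSK2830371 and 6 and 4 for the combination. The block also called *LAMA5* under the combination in TPC1 (log2 0.62, edgeR adjusted p = 1.53e-06), with 0.54 (edgeR adjusted p = 9e-06) under nutlin, below the fold threshold, and a nutlin effect that differed between lines (-0.80, edgeR adjusted p = 0.000746). Depth limits the genes near or under 1 CPM, and genes without counts are given only as bounds. Single libraries often decided a call there, but also at higher levels, as for *COL6A1* and *COL5A1*, and the cause was not tested.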
